A study of Mus musculus with 4 samples.

Results

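Cells of the subcutaneous fat of Cth+/+ female mice were compared after 4 days on a diet without cystine and after 4 days on the control diet, in the cell types other than the adipose progenitors. In the labels the diet is cystine free in the protocol and cysteine free in the sample characteristics, and the former name is used. Cth encodes cystathionine gamma-lyase, and both groups described here carried it. A second pair of libraries, from Cth-/- mice on the same diets, gives values set beside the main ones. The cells were the stromal vascular cells of subcutaneous depots that were pooled and digested after the lymph nodes had been taken out, and they were profiled with droplet-based 3' RNA sequencing, which counts unique molecular identifiers (UMIs) per gene and cell barcode. Age, strain and the number of animals are not given in the sources used here. Each group had 1 library, so no difference was tested, the 95% intervals printed cover nothing but counting error, and the effect of the diet cannot be told apart from a difference between the pools of animals or the preparations.

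Barcodes were kept with at least 500 UMIs, at least 300 detected genes and no more than 10% mitochondrial UMIs, and each was then assigned by UMIs of a few defining genes. The endothelial gate asked for at least 3 UMIs of Cdh5, Pecam1 and Cldn5, the phagocyte gate for at least 4 of Csf1r, Cd68 and Lyz2, the T gate for at least 2 of Cd3d, Cd3e and Cd3g, the mural gate for at least 4 of Rgs5 and Notch3, and the epithelial gate for at least 5 of Krt8 and Krt18. The progenitor gate, which stands here only as a reference, asked for Dcn at 0.2% of a barcode's UMIs or more. At least 1 of the 5 gates took 5408 barcodes of the Cth+/+ libraries, 2713 on the control diet and 2695 on the cystine-free diet, of 22750 kept barcodes in the whole series. A barcode could pass several gates, and 518 and 610 of the Cth+/+ barcodes did.

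Cysteine is taken up with food, largely as its oxidised dimer cystine, and is also made from methionine by transsulfuration, whose last step is the reaction of Cth. It goes into proteins and glutathione, the main soluble antioxidant of cells. When amino acids run short, cells are known to raise the targets of the transcription factor ATF4, and oxidants raise those of NRF2. Subcutaneous fat holds a dense capillary bed with pericytes, resident macrophages that take up debris and lipid, monocytes, dendritic cells and T cells. In female mice it also surrounds the mammary ducts, which are lined by hormone-sensing and secretory luminal cells and wrapped by contractile basal cells.

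The Cth+/+ libraries held 7175 (control) and 7312 (cystine-free) barcodes with 24395501 and 30944977 UMIs. Of these 6425 and 6383 were kept, with medians of 2744 and 3782 UMIs, so the cystine-free library was the deeper per barcode. The libraries shared 69 barcode sequences, of which 19 passed the same gate in both. RNA of other cells moved between the libraries in every gate. Summed erythrocyte markers, mostly haemoglobin, were higher in the cystine-free library in every gate, from 3932 to 7655 counts per 1000000 UMIs of the gate (CPM) in the endothelial gate up to 617 to 5324 CPM in the T gate. Adipocyte markers were lower in every gate, and B cell markers were higher in the endothelial gate (96.6 to 635 CPM), the mural gate (71.0 to 331 CPM) and the epithelial gate (34.0 to 58.0 CPM). Summed progenitor markers stood within 1.5-fold between the diets in every gate, at 2926 and 3338 CPM in the endothelial gate. The part of these RNAs in the results was not tested.

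Each gate was checked against its markers. Endothelial markers summed to 7942 and 7468 CPM in the endothelial gate, phagocyte markers to 11589 and 12891 CPM in the phagocyte gate, T cell markers to 3332 and 3507 CPM in the T gate, and epithelial markers to 12364 and 8353 CPM in the epithelial gate. The mural gate went against its label. Of its 428 control and 528 cystine-free barcodes, 324 and 439 also passed the endothelial gate, and its endothelial markers (5068 and 6046 CPM) were above its mural markers (3029 and 3488 CPM). It is called the Rgs5/Notch3 gate in what follows.

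The shares of kept barcodes in each gate were close between the diets in the endothelial gate, 1295 barcodes (20.2%, 19.2 to 21.2) on the control diet and 1270 (19.9%, 18.9 to 20.9) on the cystine-free diet. The phagocyte gate took 913 (14.2%, 13.4 to 15.1) and 1051 (16.5%, 15.6 to 17.4), and the Rgs5/Notch3 gate took 428 (6.66%, 6.06 to 7.30) and 528 (8.27%, 7.61 to 8.97). The T gate took fewer on the cystine-free diet, 192 (3.01%, 2.60 to 3.46) against 269 (4.19%, 3.71 to 4.71), and so did the epithelial gate, 138 (2.16%, 1.82 to 2.55) against 195 (3.04%, 2.63 to 3.48). Since a gate on UMIs passes more barcodes of a deeper library, the shares were also taken with every barcode thinned to 1000 UMIs. They then stood at 13.4% against 14.6% for the endothelial gate, 11.7% against 10.7% for phagocytes, 1.65% against 2.16% for T cells, 3.21% against 2.63% for the Rgs5/Notch3 gate and 0.758% against 1.86% for the epithelial gate, the cystine-free diet named first. The intervals of both diets did not meet before thinning in the phagocyte, T, Rgs5/Notch3 and epithelial gates, and after thinning they did not meet in the epithelial gate alone (0.555 to 1.01 against 1.52 to 2.24). Epithelial barcodes were not deeper on the cystine-free diet, with medians of 9690.5 against 10241 UMIs. The defining genes of that gate were also lower there, Krt8 at 1719.7 against 3181 CPM and Krt18 at 2325.5 against 3471 CPM. Fewer epithelial barcodes and less keratin RNA per barcode can therefore not be told apart in the thinned share.

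UMIs were summed over the barcodes of a gate in each library and expressed as CPM, and diets were compared as the log2 ratio of CPM with a pseudocount of 1 CPM, cystine-free over control. In what follows, values joined by "and" give the control diet first, and values joined by "against" give the cystine-free diet first. Among genes that reached 50 CPM and 30 UMIs in whichever library was higher, the libraries differed least in the endothelial and phagocyte gates. In the endothelial gate 12 genes were at least 2-fold higher (0.385% of 3119) and 6 at least 2-fold lower (0.192%) on the cystine-free diet, and in the phagocyte gate 12 (0.445% of 2696) and 13 (0.482%). The smaller gates held more, with 86 higher (3.54% of 2428) and 48 lower (1.98%) in the T gate, and 92 higher (3.54% of 2597) and 67 lower (2.58%) in the epithelial gate. In the Rgs5/Notch3 gate 20 genes were higher (0.635% of 3151) and 74 lower (2.35%). These folds are sizes and not tests. Counting error is larger where a gate has fewer UMIs, and its part in these counts was not tested. In every gate the median ratio over all genes with at least 10 CPM and 10 UMIs lay between -0.09 (phagocyte) and 0.01 (epithelial), so gene groups are read against a centre near 0. In the Cth-/- libraries, where list members are also counted at 1.5-fold, that size was reached upwards and downwards by 5.32% and 10.1% of measured genes in the endothelial gate, 5.39% and 8.21% in phagocytes, 17.6% and 15% in T cells, 16.2% and 13.8% in the Rgs5/Notch3 gate and 9.94% and 9.79% in epithelial cells.

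**Figure D1:**
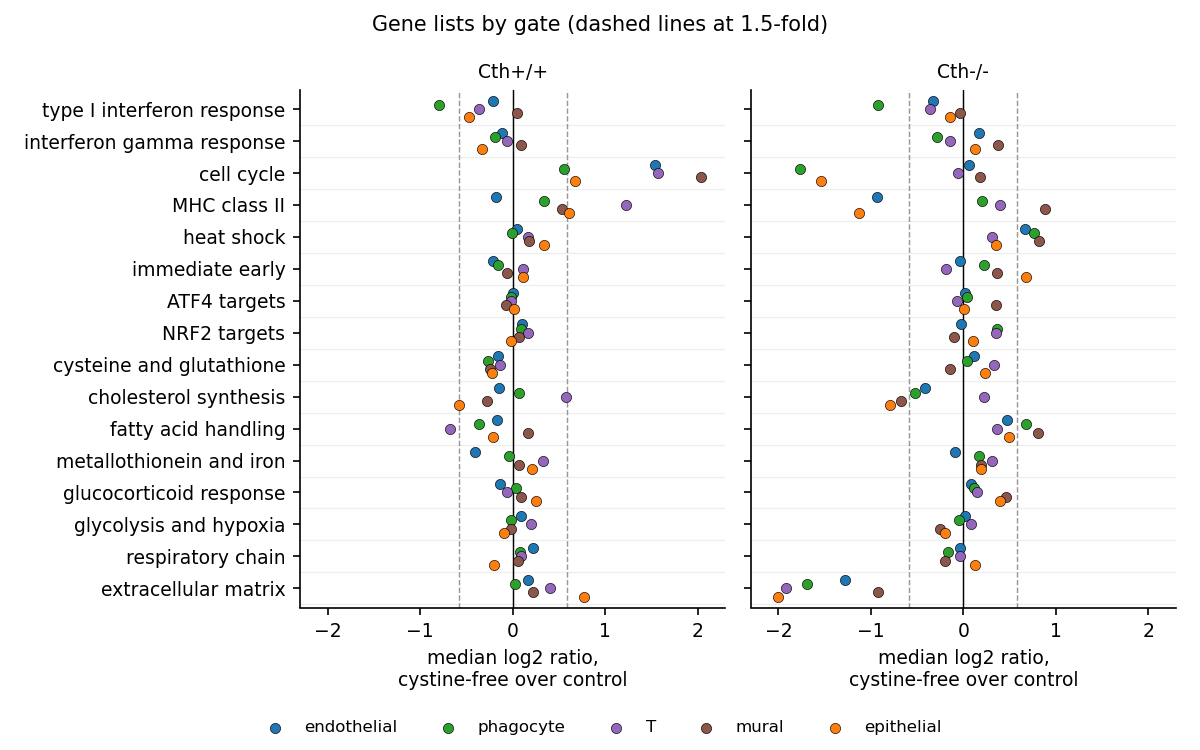
Median log2 ratio of CPM, cystine-free over control diet, of the measured members of 16 gene lists (rows) in each of the 5 gates (symbols), in Cth+/+ mice on the left and Cth-/- mice on the right, with dashed lines at 1.5-fold. In Cth+/+ mice the cell cycle list stood to the right in every gate and the interferon list stood furthest to the left in phagocytes (-0.80), while the ATF4 and NRF2 lists lay near 0.

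The clearest group in the phagocyte gate was the genes induced by type I interferon, the antiviral response of cells. Of 28 listed genes 26 were measured (at least 10 CPM and 10 UMIs in either library), none was at least 1.5-fold higher on the cystine-free diet and 19 were at least 1.5-fold lower, where 6.6% of all measured genes of the gate were lower by that much and 2.79% higher. The median log2 ratio of the list was -0.80, against -0.09 over all measured genes. In the Cth-/- libraries 17 of 28 were lower, with a median of -0.92.

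The transcription factor complex of this response binds the interferon-stimulated response element, whose core was searched as GAAA followed after any 2 bases by another GAAA, on both strands of promoters reaching from 250 bases before to 50 after each gene's start (RefSeq, GRCm38.p6). Of the 28 listed genes 21 had a promoter in the table and 12 of these held the element (57.1%), among them Isg15, Ifit1, Ifit3, Stat2, Oas1a, Rsad2, Bst2, Ifih1 and Ddx58, compared with 1079 of 27025 genes (3.99%) and 1131 of all 32851 promoters of the same length (3.44%). A match is a description of the sequence and no evidence of binding. The 4 promoters printed here belong to genes the phagocyte results turn on, and show 1 match, no match, separate matches and overlapping matches. Each run is the 250 bases before the start, 5′ to 3′ on the gene's strand, with the matched bases in capitals. Rsad2 lies on the minus strand at chr12:26456453-26456702 and holds 1 match, Oasl2 on the plus strand at chr5:114896684-114896933 holds 0, Ifit1 on the plus strand at chr19:34640639-34640888 holds 2, and Isg15 on the minus strand at chr4:156200819-156201068 holds 3 that overlap.
Rsad2: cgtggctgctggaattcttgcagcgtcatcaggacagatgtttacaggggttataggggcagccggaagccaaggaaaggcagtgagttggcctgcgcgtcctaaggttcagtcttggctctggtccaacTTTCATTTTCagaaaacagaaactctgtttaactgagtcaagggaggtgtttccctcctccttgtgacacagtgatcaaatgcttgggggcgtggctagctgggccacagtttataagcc
Oasl2: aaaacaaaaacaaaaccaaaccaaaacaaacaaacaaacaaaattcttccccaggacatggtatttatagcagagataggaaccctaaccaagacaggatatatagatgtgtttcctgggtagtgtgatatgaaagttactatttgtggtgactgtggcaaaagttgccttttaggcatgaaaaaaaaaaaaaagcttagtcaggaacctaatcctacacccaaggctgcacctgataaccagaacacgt
Ifit1: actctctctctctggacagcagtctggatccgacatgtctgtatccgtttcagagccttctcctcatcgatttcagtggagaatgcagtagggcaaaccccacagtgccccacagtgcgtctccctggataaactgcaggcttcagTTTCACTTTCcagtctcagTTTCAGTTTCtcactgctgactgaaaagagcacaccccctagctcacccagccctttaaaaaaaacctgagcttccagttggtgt
Isg15: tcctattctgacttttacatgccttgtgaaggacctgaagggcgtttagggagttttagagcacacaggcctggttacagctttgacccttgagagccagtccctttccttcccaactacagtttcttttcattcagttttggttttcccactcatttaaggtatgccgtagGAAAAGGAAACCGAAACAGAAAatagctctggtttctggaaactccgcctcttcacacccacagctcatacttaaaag

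Rsad2, which encodes the antiviral enzyme viperin, stood at 114 CPM on the control diet and 32.7 CPM on the cystine-free diet in Cth+/+ phagocytes, and at 126 and 54.6 CPM in Cth-/- phagocytes. Both cystine-free libraries were thus below both control libraries. The Cth+/+ log2 ratio was -1.76 (-2.09 to -1.50). Oasl2, a member of the 2'-5' oligoadenylate synthetase family, stood at 115 and 50.3 CPM in Cth+/+ (log2 ratio -1.18, -1.45 to -0.95) and at 109 and 53.5 CPM in Cth-/-. The helicase-like gene Ddx60 stood at 113 and 51.7 CPM, against 89.96 and 57.5 CPM in Cth-/-. In each of these genes both cystine-free libraries were below both control libraries.

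Other members were also lower on the cystine-free diet in Cth+/+, at different sizes. Irf7, the factor that amplifies interferon production, stood at 52.9 against 104 CPM (cystine-free against control). The ubiquitin-like Isg15 stood at 101 against 160.5 CPM in Cth+/+ and 80.99 against 149 CPM in Cth-/-. The RNA sensor Ddx58 (RIG-I) stood at 11.9 against 28.99 CPM. Among the IFIT genes, whose proteins bind foreign RNA, Ifit1 stood at 21.1 against 42.1 CPM and Ifit2 at 7.11 against 19.7 CPM. Ifi27l2a, an interferon-induced protein of mitochondria, stood at 1662 against 2807 CPM in Cth+/+ and 1201 against 2771 CPM in Cth-/-. By contrast the list of genes induced by interferon gamma had 2 of 18 members higher and 2 lower, with a median of -0.19.

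The lower interferon sum was spread over barcodes. With barcodes thinned to 1000 UMIs, the mean was 5.20 interferon UMIs per phagocyte on the control diet and 3.12 on the cystine-free diet. The medians were 4 and 2 and the 90th percentiles 12 and 8. The top 5% of barcodes held 22.1% and 23.9% of these UMIs. At least 10 such UMIs were found in 143 of 868 barcodes (16.5%) and 60 of 1018 (5.89%), and none in 9.33% and 18.9%. The Cth-/- libraries gave means of 5.24 and 2.68 and shares with at least 10 UMIs of 16.1% and 2.60%. In the progenitor gate the means were 3.04 and 2.19.

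In Cth+/+ the interferon difference stood mainly in the macrophages that express C1q, the first component of the classical complement pathway. Barcodes with at least 5 UMIs of C1qa, C1qb and C1qc, a division chosen after seeing the data, made up 581 of 913 phagocytes (63.6%, 60.4 to 66.8) on the control diet and 576 of 1051 (54.8%, 51.7 to 57.8) on the cystine-free diet. Among them 22 of 28 interferon genes were at least 1.5-fold lower, with a median of -0.86, beside 8.09% of all genes measured in these barcodes, and Rsad2 stood at 52.3 against 179.9 CPM. Among the other phagocytes 3 of 22 were lower and 1 higher, beside 8.66% of all genes lower, with a median of -0.17, Rsad2 stood at 15.2 against 19.97 CPM and Isg15 at 90.2 against 94.04 CPM. In Cth-/- mice the barcodes below that limit were also lower, in 13 of 22 genes with a median of -0.66, beside 16.7% of all genes. Whether the C1q-high and C1q-low barcodes differ in the diet ratio could not be tested with 1 library a group.

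**Figure D2:**
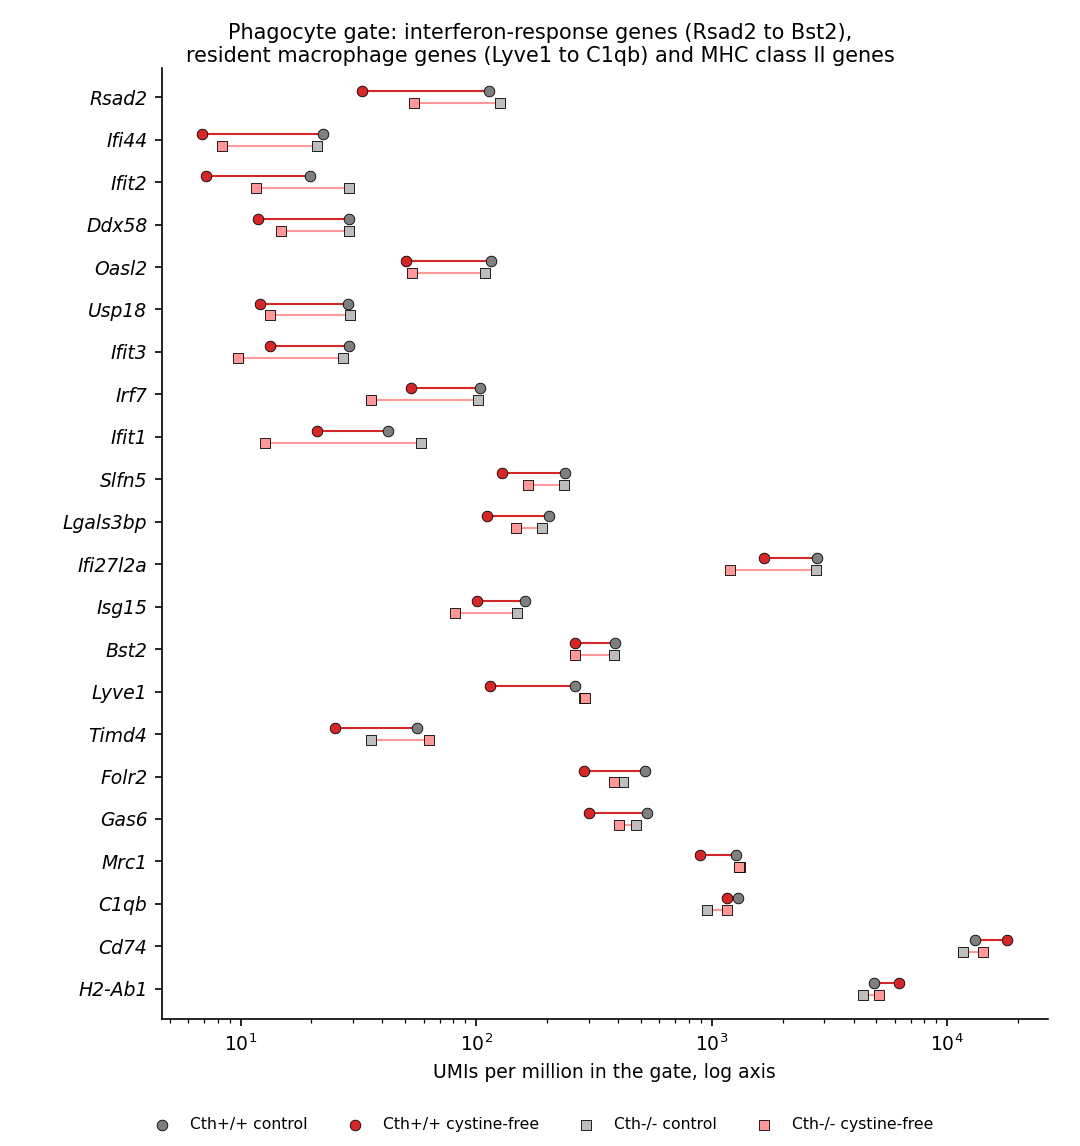
CPM on a log axis of 22 genes in the phagocyte gate, with 1 symbol for each of the 4 libraries, for interferon-induced genes, resident macrophage genes and MHC class II genes. For Rsad2 both cystine-free libraries lie left of both control libraries (32.7 and 54.6 against 114 and 126 CPM), while for Lyve1 the Cth+/+ cystine-free library alone lies low (114 CPM).

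Genes of resident adipose macrophages were lower in the Cth+/+ cystine-free library. Of 15 measured, 7 were at least 1.5-fold lower and none higher, with a median of -0.56. The Cth-/- libraries had 2 higher and 0 lower, with a median of 0.11. Lyve1, the hyaluronan receptor of perivascular macrophages, stood at 262 and 114 CPM in the Cth+/+ control and cystine-free libraries and at 286 and 291 CPM in the Cth-/- ones, so 1 library lay apart from the other 3. Timd4, a receptor for phosphatidylserine on dying cells, stood at 55.9 and 25.1 CPM, and at 35.8 and 62.9 CPM in Cth-/-. The folate receptor Folr2 stood at 287 against 523 CPM (cystine-free against control), the growth arrest protein Gas6 at 303 against 533 CPM, the haemoglobin scavenger receptor Cd163 at 145 against 228 CPM and the mannose receptor Mrc1 at 895 against 1269.8 CPM.

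The named genes with the lowest ratios in the gate included further genes with this pattern. Fcna, a ficolin that binds sugars on microbes, stood at 344 and 169 CPM, and at 296 and 622 CPM in Cth-/-. Ednrb, an endothelin receptor, stood at 352 and 165 CPM, and at 337 and 411 CPM in Cth-/-. Complement C4b stood at 219 against 442 CPM, the peptidase Enpep at 27.7 against 59.4 CPM and Ints6, a subunit of the Integrator complex, at 32.2 against 66.3 CPM. For Fcna, Ednrb and C4b the Cth-/- cystine-free library was not below its control.

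The makeup of the gate moved with these genes. The share of thinned barcodes with at least 2 UMIs of the resident list was 72.7% (69.6 to 75.6) on the control and 63.2% (60.1 to 66.1) on the cystine-free diet, and 73.6% and 76.2% in Cth-/-. Within C1q-high barcodes 2 of the 15 resident genes were at least 1.5-fold lower, with a median of -0.34. The share of resident barcodes uses the UMIs of the same genes, so fewer resident cells and less of these RNAs per cell cannot be told apart. Complement genes of the list stood at a median of -0.44 with 3 of 11 lower, among them the alternative pathway factor Cfb (10.2 against 26.6 CPM). The lysosomal protease gene Ctsd stood at 397 against 684 CPM, the lipid carrier Apoe at 3401 against 4815 CPM, the phagocytic receptor Mertk at 19.7 against 34.9 CPM and the fatty acid and scavenger receptor Cd36 at 386 against 569.8 CPM. The scavenger receptor Marco gave 3 UMIs against 49, a log2 ratio of counts between -6.90 and -2.94, and was at 0 in both Cth-/- libraries.

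Of 9 MHC class II genes, which present antigen, 1 was at least 1.5-fold higher, with a median of 0.34, and of 16 monocyte genes 1 was higher and 3 lower, with a median of 0.03. The invariant chain Cd74 stood at 17993 against 13095 CPM, H2-Aa at 6504 against 5266 CPM and H2-Ab1 at 6220.3 against 4899 CPM. Lyz1, a lysozyme of monocyte-derived cells, stood at 577 against 329 CPM. In all 4 genes passed the rule for named genes on the higher side. Dnase1l3, a nuclease that degrades DNA of dead cells, stood at 104 against 33.5 CPM, the transcriptional cofactor Lmo1 at 57.6 against 23.1 CPM and Arl5c at 82.97 against 40.04 CPM. Histone Hist1h2ap stood at 207 against 63.9 CPM, and at 40.9 against 174 CPM in Cth-/-, where the order of the diets was opposite.

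Cytokines and chemokines split. Of 24 measured, 4 were higher and 4 lower, with a median of -0.19. The monocyte attractants Ccl2 (1619.8 against 2192 CPM), Ccl7 (1882 against 2965 CPM, and 1199 against 2896 CPM in Cth-/-) and Ccl8 (747 against 1267 CPM) were on the low side. On the high side were Ccl22 of dendritic cells (25.4 against 7.94 CPM), Cxcl10 (118 against 71.4 CPM), Il1b (1303 against 946 CPM) and Il6 (124 against 79.7 CPM). Cxcl10 is itself induced by interferon and stood opposite to the interferon list. Cell cycle genes had 10 of 22 higher and a median of 0.55, and barcodes with at least 3 UMIs of 11 mitotic genes, called cycling here, were 36 of 913 (3.94%, 2.78 to 5.42) and 64 of 1051 (6.09%, 4.72 to 7.71). In Cth-/- phagocytes 20 of 21 cell cycle genes were lower, with a median of -1.76, and cycling barcodes were 5.08% and 1.39%. Neutrophil markers in the gate summed to 248 and 555 CPM, with 3 of 5 measured higher.

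The endothelial gate differed most in proliferation. Of 21 cell cycle genes 18 were at least 1.5-fold higher, with a median of 1.54, where 2.47% of all measured genes were higher and 3.08% lower by that much. Top2a, the topoisomerase of dividing cells, stood at 14.4 and 56.1 CPM in the Cth+/+ control and cystine-free libraries, and at 6.82 and 9.76 CPM in Cth-/-. The proliferation marker Mki67 stood at 5.04 and 24.4 CPM, and at 3.72 and 2.74 CPM in Cth-/-. For both genes the Cth+/+ cystine-free library was the highest of the 4. Birc5, which guards chromosome segregation, stood at 41.2 against 9.37 CPM, the microtubule regulator Stmn1 at 176 against 59.8 CPM and the cyclin-dependent kinase partner Cks1b at 52.4 against 24.5 CPM.

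Cycling barcodes made up 16 of 1295 (1.24%, 0.708 to 2.00) on the control and 87 of 1270 (6.85%, 5.52 to 8.38) on the cystine-free diet, against 4 of 544 (0.735%) and 1 of 1035 (0.0966%) in Cth-/-. Thinned to 1000 UMIs the Cth+/+ shares were 0.428% (0.139 to 0.997) and 2.02% (1.31 to 2.97), so the order was the same at equal depth per barcode. Of the 87 cycling barcodes 48 also passed the Rgs5/Notch3 gate. That gate had 7 of 428 (1.64%) and 50 of 528 (9.47%) cycling barcodes and 20 of 21 cell cycle genes higher, with a median of 2.03, beside a background of 5.34%. After thinning its cycling shares were 0.493% (0.0597 to 1.77) and 1.72% (0.791 to 3.25), with intervals that met. Most cycling barcodes of the Rgs5/Notch3 gate are therefore also counted in the endothelial gate.

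**Figure D3:**
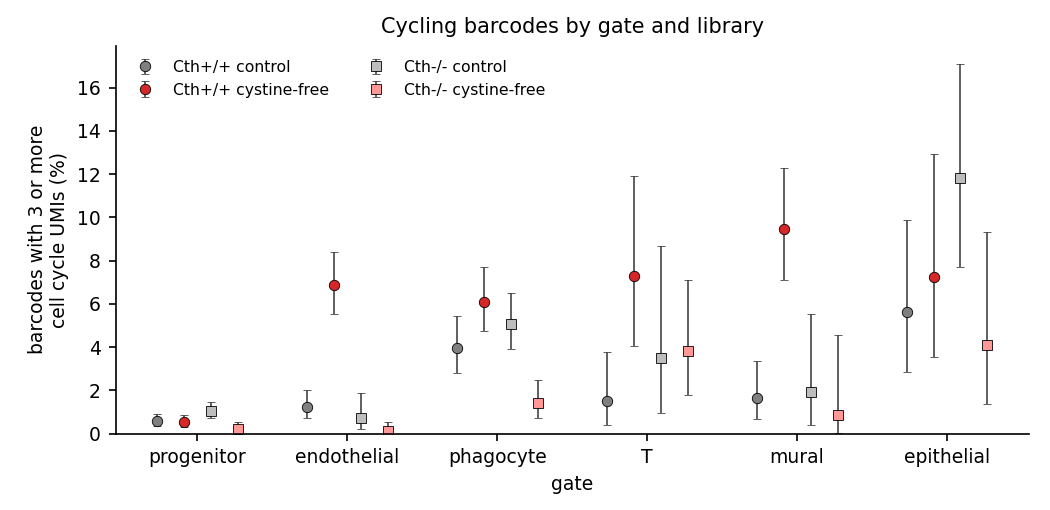
Percent of barcodes with at least 3 UMIs of 11 mitotic genes in each of the 6 gates and 4 libraries, with 95% Clopper-Pearson intervals of counting error. In the endothelial gate the Cth+/+ cystine-free library stands at 6.85% and the other 3 at or under 1.24%, while the progenitor gate stands near or under 1.05% in every library.

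Sprouting genes moved with the cell cycle genes. Of 15 measured in the tip cell list 4 were higher and none lower, with a median of 0.38, while in Cth-/- 5 of 13 were lower and none higher, with a median of -0.49. Apln, the peptide apelin that tip cells secrete, stood at 24.3 and 65.97 CPM, and at 0 and 2.74 CPM in Cth-/-. Esm1, another tip cell gene, stood at 51.3 against 28.8 CPM, the growth factor Pgf at 12.9 against 5.53 CPM, the vessel destabilising ligand Angpt2 at 43.9 against 33.6 CPM and the Notch ligand Dll4 at 130.2 against 110.02 CPM. Mest, an imprinted gene, stood at 51.8 against 20.9 CPM. Capillary, arterial and venous genes stood closer, and lymphatic genes did not. None of 12 capillary genes was 1.5-fold apart (median -0.10), 1 of 10 arterial genes was higher (0.25) and 1 of 10 venous genes lower (-0.27). Of 7 measured lymphatic genes 2 were higher and none lower (0.36), and in Cth-/- 4 of 7 were lower (-0.63). The lymphatic marker Prox1, just under the measuring limit of 10 CPM, was on the low side at 4.78 against 9.85 CPM. In endothelial barcodes outside the Rgs5/Notch3 gate 2 of 8 lymphatic genes were higher and 1 lower. The thinned share of barcodes with at least 2 UMIs of the venous list was 30.3% (27.7 to 33.1) and 23.97% (21.6 to 26.4). Barcodes with lymphatic genes were 9.11% and 16.1% of the gate, and 2.66% and 3.48% after thinning.

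Other endothelial genes were apart in smaller groups. None of 18 endothelial signalling genes was 1.5-fold apart (median -0.14), with the VEGF receptor Kdr at 1011 against 1197 CPM. None of 17 fatty acid handling genes was apart either (median -0.17), with the fatty acid binding protein Fabp4 at 34039 against 36382 CPM and the glycerol channel Aqp7 at 415 against 599.6 CPM. In Cth-/- 8 of 18 of those genes were higher, with Fabp4 at 53379 against 32508 CPM and the lipase inhibitor Angptl4 at 726 against 245 CPM, where Cth+/+ had 155 against 217 CPM. Of 8 metal handling genes 2 were lower, and the metallothioneins Mt1 and Mt2, which bind zinc through their cysteines, stood at 1388 against 1904 and 556 against 969.8 CPM. Irf1 stood at 297 against 464 CPM, the adhesion molecule Icam2 at 217 against 133 CPM and the protease inhibitor Timp4 at 394 against 262 CPM.

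Genes with large ratios in the endothelial gate included genes of other cells. Mgp, matrix Gla protein, stood at 215 against 86.2 CPM in Cth+/+ and 48.5 against 205 CPM in Cth-/-, and in the progenitor gate of Cth+/+ at 790.1 against 262 CPM. Over barcodes that passed the endothelial gate alone it stood at 70.7 against 39.2 CPM. The adipocyte gene Cfd (adipsin) stood at 65.7 against 265 CPM in Cth+/+ and 1420.1 against 699.7 CPM in Cth-/-, and all 5 measured adipocyte markers of the gate were lower in Cth+/+, with sums of 600 and 241 CPM. The part of adipocyte RNA in the Cfd value was not tested.

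The T gate held 269 and 192 barcodes, and 15.4% of all its measured genes stood 1.5-fold or more above the control and 15.9% below it, so its lists are read against a wide background. T cell receptor signalling genes were close, with 0 of 15 apart and a median of 0.18. Cytotoxic genes had 7 of 16 higher and none lower, with a median of 0.38. Gzma, granzyme A, gave 6 UMIs on the control diet and 278 on the cystine-free diet, 7.95 and 421 CPM, and 329 and 263 CPM in Cth-/-. The Cth+/+ control library was thus the low one of the 4. The chemokine Ccl5 stood at 2535 and 5583 CPM, and at 6269 and 2291 CPM in Cth-/-, where the order was opposite. Granzyme B (Gzmb) stood at 180.4 against 79.5 CPM, Gzmk at 33.4 against 10.6 CPM and the granule protein Nkg7 at 797 against 510.0 CPM. Interferon gamma (Ifng) gave 42 UMIs against 3, a log2 ratio of counts between 2.36 and 6.34.

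Natural killer (NK) cell genes were also higher in part. NK markers summed to 74.2 and 559 CPM in the gate, but the list holds Gzma, which gave most of the sum. Of the others Klre1 stood at 68.2 against 29.1 CPM, Klrb1c at 25.8 against 3.97 CPM, Eomes at 34.9 against 27.8 CPM and Ncr1, the receptor NKp46, at 4.55 against 5.30 CPM, and Klra8 was at 0 on the control diet. Barcodes with at least 2 UMIs of the list other than Gzma, a division chosen after seeing the data, were 14 of 269 (5.20%, 2.87 to 8.58) and 20 of 192 (10.4%, 6.48 to 15.6), and 14.8% and 3.39% in Cth-/-. Without them 4 of 13 measured cytotoxic genes were higher and 1 lower, with a median of 0.34, beside 14.8% and 16.6% of all genes. Gzma then stood at 221 against 6.997 CPM, Ccl5 at 5095 against 2224 CPM and Ifng at 60.6 against 4.20 CPM. Of the 278 Gzma UMIs of the cystine-free library 124 lay outside these barcodes, and of the 6 of the control library 5 did. With Gzma counted in the division, which takes Gzma out by construction, the cytotoxic list had 3 of 12 higher and 4 lower. Its median was -0.05, and 14.2% and 16.5% of all genes were higher and lower.

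Cell cycle genes were higher in 16 of 20, with a median of 1.58, and cycling barcodes were 4 of 269 (1.49%, 0.407 to 3.76) and 14 of 192 (7.29%, 4.04 to 11.9). Mki67 stood at 50.03 against 5.30 CPM, Top2a at 103 against 18.5 CPM, Stmn1 at 268 against 68.9 CPM and Birc5 at 80.3 against 17.2 CPM. Named genes beside them were Cks2 (117 against 31.8 CPM), the histone variant H2afx (74.3 against 21.2 CPM), the replication licensing inhibitor Gmnn (50.03 against 14.6 CPM), Btbd1 (56.1 against 17.2 CPM) and the serpin Serpinb6b (95.5 against 27.8 CPM, and 39.8 against 106 CPM in Cth-/-). Without the NK barcodes 4 of 12 measured cell cycle genes were higher and 1 lower, with a median of 0.36, where Gzma counted in the division. All genes higher and lower there were 14.2% and 16.5%. Where Gzma did not count, 9 of 14 were higher and 0 lower with a median of 0.70, beside 14.8% and 16.6%.

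Genes of naive T cells were lower. Of 11 measured, 5 were at least 1.5-fold lower and none higher, with a median of -0.34, and without NK barcodes the count was again 5 of 11 under both divisions, with medians of -0.38 (with Gzma) and -0.25 (without it). Lef1, a transcription factor of naive and memory precursor cells, stood at 129.8 and 45.5 CPM in Cth+/+ and at 19.9 and 105 CPM in Cth-/-. Dapl1 stood at 155 and 43.96 CPM, and at 36.6 and 124 CPM in Cth-/-. In both genes the diets had opposite orders in the 2 genotypes. The transcription factors Tcf7 and Satb1 stood at 93.99 against 151 and 111 against 171 CPM.

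**Figure D4:**
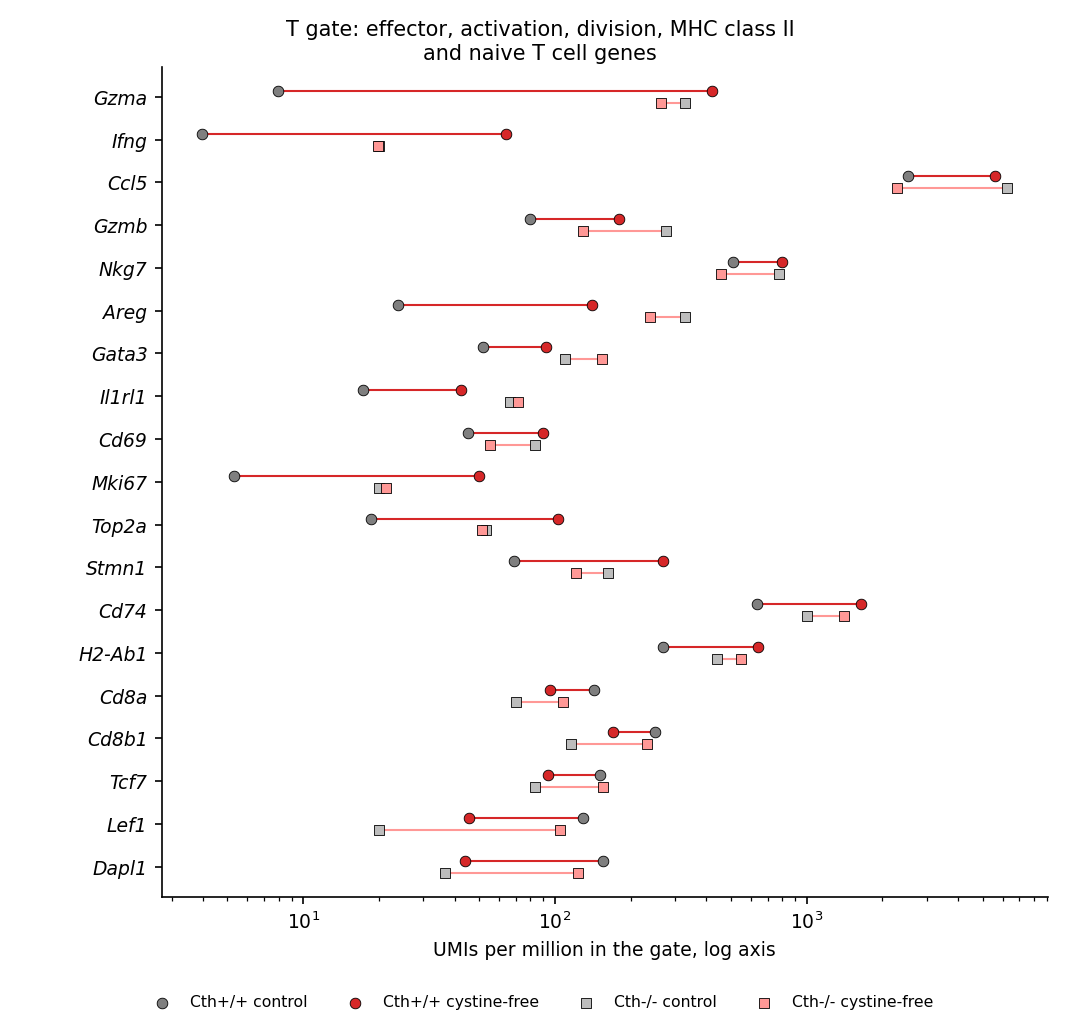
CPM on a log axis of 19 genes in the T gate, with 1 symbol for each of the 4 libraries, for cytotoxic, cell cycle, naive and activated T cell genes. Lef1 and Dapl1 are low in the Cth+/+ cystine-free and the Cth-/- control library, and Gzma is low in the Cth+/+ control library alone (7.95 CPM).

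Regulatory and activation genes were on the higher side. Of 8 measured regulatory T cell genes 6 were higher, with a median of 0.74, and of 14 activation genes 6 were higher and 1 lower, with a median of 0.36. Areg, the repair growth factor amphiregulin, stood at 141 against 23.8 CPM in Cth+/+ and 239 against 329 CPM in Cth-/-. Il1rl1, the receptor for interleukin 33, stood at 42.4 against 17.2 CPM, Gata3 at 92.5 against 51.7 CPM and Klrg1 at 18.2 against 6.62 CPM. These genes are also those of type 2 innate lymphoid cells. The G protein regulators Rgs1 and Rgs2 stood at 256 against 125 and 503 against 197 CPM and the early activation marker Cd69 at 89.4 against 45.04 CPM. Barcodes with a UMI of Cd8a or Cd8b1 were 111 of 269 (41.3%, 35.3 to 47.4) and 55 of 192 (28.6%, 22.4 to 35.6), and those with a UMI of Cd4 were 17 (6.32%, 3.72 to 9.93) and 23 (12.0%, 7.75 to 17.4), at medians of 2502 and 2802 UMIs per barcode of the gate.

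Further T gate lists stood away from 0 beside RNA of other cells. MHC class II genes, which mouse T cells hardly express, had 5 of 7 higher with a median of 1.22, with Cd74 at 1646 against 636 CPM and H2-Ab1 at 643 against 269 CPM. Phagocyte markers summed to 1158 and 1387 CPM in the gate, with 4 of 8 higher and B cell markers at 217 and 223 CPM. Interferon genes had 9 of 21 lower, with a median of -0.36, and fatty acid handling genes 7 of 14 lower and 1 higher, with a median of -0.67. Endothelial markers, whose cells express the latter strongly, summed to 391 and 300 CPM. The part of these cells was not tested.

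The epithelial gate showed the largest gene group difference of the 5 gates. All 12 genes of basal cells were at least 1.5-fold higher on the cystine-free diet, with a median of 2.80, where 11.9% of all measured genes of the gate were higher and 8.45% lower. In Cth-/- 5 of the 12 were higher and 2 lower, with a median of 0.27. Krt14, a basal keratin, stood at 38.05 and 454 CPM, and at 44.2 and 161 CPM in Cth-/-. Its partner Krt5 stood at 18.3 and 215 CPM, and at 16.8 and 20.6 CPM in Cth-/-. For both, the Cth+/+ cystine-free library was above the other 3. Krt17 stood at 233 against 17.3 CPM, the actin binding protein Tagln at 463 against 43.8 CPM, the oxytocin receptor Oxtr at 67.7 against 6.79 CPM, which drives contraction of basal cells during milk let-down, and the basal transcription factor Trp63 at 22.3 against 3.74 CPM.

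The number of barcodes with basal keratins moved with these genes. At least 2 UMIs of Krt5, Krt14 and Krt17 were found in 12 of 195 barcodes (6.15%, 3.22 to 10.5) on the control and 33 of 138 (23.9%, 17.1 to 31.9) on the cystine-free diet, and in 4.43% and 11.5% in Cth-/-. Without these barcodes, a division chosen after seeing the data, 2 genes of the basal list still reached the measuring limit, with 1 higher, 1 lower and a median of -0.15, and the gate held 33 genes 2-fold or more higher and 44 lower instead of 92 and 67. Krt5, Krt14 and Krt17 belong to the list, so their own levels there are set by the division. The epithelial gate does not ask for basal keratins, so a basal barcode passed only with enough Krt8 and Krt18. Other named higher genes were the helix-loop-helix inhibitor Id4 (68.3 against 5.77 CPM), Lmo1 (58.6 against 5.44 CPM), the chemokine Cxcl14 (553 against 68.3 CPM), the protease inhibitor Slpi (467 against 60.1 CPM) and the activity-induced gene Arc (54.97 against 5.44 CPM).

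Hormone-sensing luminal genes were on the lower side, with 6 of 12 lower and 2 higher and a median of -0.66 (0.12 in Cth-/-). The progesterone receptor Pgr stood at 193 and 75.5 CPM, and at 170.3 and 26.8 CPM in Cth-/-. The prolactin receptor Prlr stood at 1120.5 against 1933 CPM, the oestrogen receptor Esr1 at 35.6 against 47.6 CPM, Cxcl15 at 173 against 491 CPM and the stem and luminal cell protein Prom1 at 73.7 against 163 CPM, whereas the transcriptional regulator Cited1 stood at 370.3 against 250.01 CPM. Secretory luminal genes had 3 of 12 higher and none lower, with a median of 0.46, with the whey protein gene Wfdc18 at 3009 against 1388 CPM and the casein Csn3 at 387 against 279.9 CPM (54.7 against 306 CPM in Cth-/-).

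To compare like cells, barcodes with at least 2 UMIs of Prlr, Esr1, Pgr, Cited1 and Foxa1 and fewer than 2 of the basal keratins were taken, again after seeing the data. They were 150 of 195 (76.9%, 70.4 to 82.6) and 68 of 138 (49.3%, 40.7 to 57.9) of the Cth+/+ gate and 77.3% and 76.2% of the Cth-/- gate. Since all 5 defining genes belong to the list, its levels there are a description. Within them its median was -0.14, with 3 of 12 higher and 3 lower. Pgr stood at 119 against 209.98 CPM, Prlr at 1738 against 2071 CPM, Cxcl15 at 284 against 525 CPM and Cited1 at 625 against 275 CPM. Some genes outside the list kept a large difference within these barcodes. Gpx3, a secreted selenium-dependent glutathione peroxidase, stood at 6211 and 1327 CPM in the whole Cth+/+ gate and at 7621 and 832 CPM in the Cth-/- gate. Within hormone-sensing barcodes it stood at 2025 against 6506 CPM in Cth+/+ and 886 against 8236 CPM in Cth-/-. Both cystine-free libraries were below both control libraries.

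Several other named genes had this order. Sprr1a, a protein of the cornified envelope, stood at 21.7 against 465 CPM in Cth+/+ and 72.5 against 288 CPM in Cth-/-, and at 37.8 against 528 CPM within Cth+/+ hormone-sensing barcodes. Aoc1, the diamine oxidase that degrades histamine and putrescine, stood at 76.7 against 336 CPM in Cth+/+ and 9.49 against 391 CPM in Cth-/-, and at 105 against 369.8 CPM within the hormone-sensing barcodes. The crosslinking enzyme Tgm2 stood at 261 against 835 CPM and 368 against 818 CPM, and Tmem86a, a lysoplasmalogenase, at 21.7 against 81.9 CPM and 6.70 against 149 CPM, in Cth+/+ and Cth-/- respectively. For Ido1, which breaks down tryptophan, Cth+/+ had 108 against 544 CPM and Cth-/- had 497 against 297 CPM, so the genotypes had opposite orders. Further lower named genes were the vitamin transporter Slc5a6 (22.3 against 77.8 CPM), the tetraspanin Tspan13 (163 against 587 CPM), Gatb (38.1 against 168 CPM), which acts in mitochondrial translation, and Ctsr (3.62 against 66.6 CPM).

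**Figure D5:**
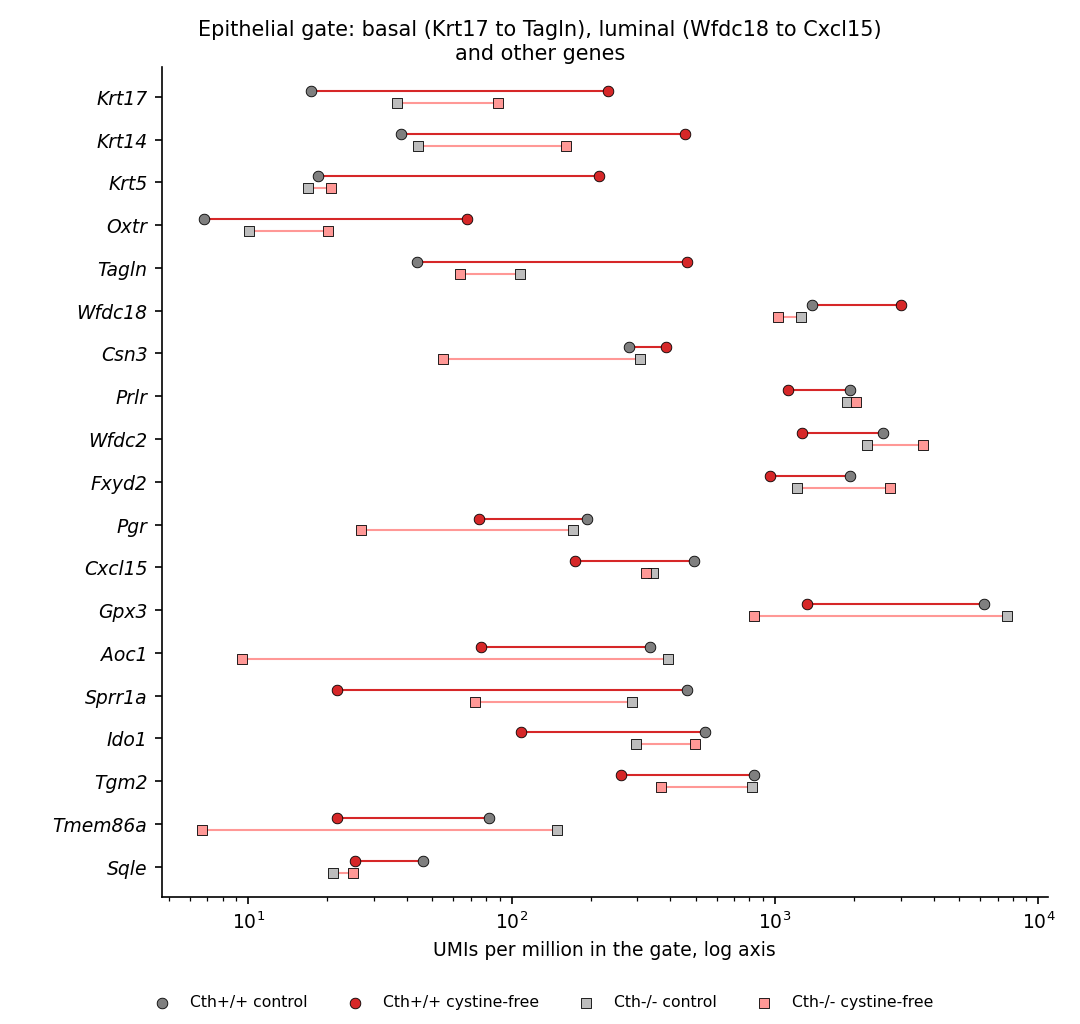
CPM on a log axis of 19 genes in the epithelial gate, with 1 symbol for each of the 4 libraries, for basal, luminal and other genes. The basal genes lie highest in the Cth+/+ cystine-free library (Krt14 454 CPM against 38.0 CPM on the control diet), and Gpx3 lies lower in both cystine-free libraries (1327 and 832 CPM) than in both control libraries (6211 and 7621 CPM).

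Cholesterol synthesis genes were lower in the epithelial gate, 7 of 14 with none higher and a median of -0.58, and in Cth-/- 9 of 16 were lower with a median of -0.79. Within hormone-sensing barcodes the count was 9 of 15 and the median -0.62, beside 8.56% of all genes measured there. Sqle, squalene epoxidase, stood at 25.4 against 46.2 CPM. Interferon genes had 7 of 16 lower and none higher, with a median of -0.48, with Isg15 at 10.9 against 34.99 CPM and Bst2, which tethers budding virions, at 76.7 against 189 CPM. Matrix genes had 16 of 24 higher, with a median of 0.77, and summed progenitor markers in the gate stood at 1662 and 2304 CPM. The collagen Col3a1 stood at 593 against 296 CPM in Cth+/+ and 11.2 against 459 CPM in Cth-/-, where progenitor markers summed to 2660 and 653 CPM. The metallothioneins Mt1 and Mt2 stood at 2169.7 against 1343 and 1314 against 684 CPM, above the control, while in the endothelial gate they were below it. Cycling barcodes were 11 of 195 (5.64%, 2.85 to 9.87) and 10 of 138 (7.25%, 3.53 to 12.9).

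In the Rgs5/Notch3 gate the named genes with the lowest ratios included genes of mammary epithelium. The iodide transporter Slc5a5 stood at 10.7 against 195 CPM, the whey acidic protein family gene Wfdc2 at 105 against 693 CPM, the growth factor Ptn at 99.3 against 649 CPM and Dkkl1 at 10.7 against 77.4 CPM. Epithelial markers summed to 3323 and 570 CPM, with 8 of 8 measured lower. Barcodes with at least 3 UMIs of Krt8 and Krt18 were 17 of 428 (3.97%) and 6 of 528 (1.14%), with medians of 38535 and 28046.5 UMIs. Without them, a division chosen after seeing the data, 8 genes were at least 2-fold lower. The gate had 74 such genes with them.

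Pericyte genes, which name the cells wrapped around capillaries, had 4 of 13 higher and none lower, with a median of 0.26, beside a background of 5.34% higher and 7.97% lower. Without the keratin barcodes 0 of 13 were apart and the median was -0.05. The potassium channel subunit Kcnj8 stood at 201 against 121 CPM, the mitochondrial subunits Ndufa4l2 and Cox4i2 at 477 against 299.6 and 277 against 181 CPM, the proteoglycan Cspg4 at 51.3 against 32.1 CPM, and the platelet-derived growth factor receptor Pdgfrb at 250.2 against 209.5 CPM. Contractile genes of smooth muscle were close in the whole gate, with 0 of 11 apart and a median of 0.11, with Acta2 at 195 against 195 CPM, Tagln at 190.3 against 180.1 CPM and the smooth muscle myosin Myh11 at 69.2 against 64.3 CPM. Without the keratin barcodes 0 of 11 were apart and their median was -0.15. Without barcodes of the endothelial gate, again after seeing the data, 9 of 11 contractile genes were higher (median 1.14). So were 13 of 13 pericyte genes (1.52), beside 18.8% of all genes. In the barcodes of the gate outside the endothelial and progenitor gates Krt8 stood at 1179 against 2992 CPM. The part of the keratin barcodes in these contractile and pericyte values was not tested. Of 26 matrix genes 5 were higher and none lower, with a median of 0.23, with the basement membrane collagen Col4a1 at 1318 against 904 CPM and the collagen binding protein Sparc at 4184 against 2730.3 CPM. Without the keratin barcodes 2 were higher and 2 lower, with a median of -0.02, and the log2 ratio of Col4a1 was 0.24. Ppic, a cyclophilin, and Tspan6 were among the 4 named higher genes, at 201 against 87.8 and 77.6 against 38.01 CPM.

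The lists that name the response to a lack of amino acids or to oxidants had medians close to 0 in every gate. ATF4 targets had medians between -0.07 (Rgs5/Notch3 gate) and 0.02 (epithelial gate), with 2 of 24 higher and 0 lower in endothelial cells, 1 and 1 of 24 in phagocytes, 2 and 4 of 22 in T cells, 2 and 3 of 26 in the Rgs5/Notch3 gate and 2 and 2 of 24 in epithelial cells. Asns, asparagine synthetase and a standard ATF4 target, stood at 12.6 against 12.5 CPM in the endothelial gate. Psat1 of serine synthesis and Mthfd2 of the mitochondrial folate pathway were the 2 higher members there, at 11.3 against 3.36 and 11.7 against 5.29 CPM. NRF2 targets had medians between -0.02 (epithelial) and 0.17 (T). Higher and lower members were 0 and 2 of 15 (endothelial), 0 and 0 of 15 (phagocyte) and 1 and 2 of 13 (T). They were 0 and 3 of 16 (Rgs5/Notch3) and 2 and 4 of 17 (epithelial). All genes higher and lower were 2.47% and 3.08% (endothelial), 2.79% and 6.6% (phagocyte) and 15.4% and 15.9% (T). They were 5.34% and 7.97% (Rgs5/Notch3) and 11.9% and 8.45% (epithelial). Slc7a11, the cystine importer that both factors drive, stood at 21.3 against 15.2 CPM in phagocytes.

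Genes of cysteine and glutathione metabolism had medians from -0.14 (T) to -0.27 (phagocyte). The median lower and the median upper counting bound of the members lay on either side of 0 in all 5 gates. These bounds are as wide as those of single genes and are no interval of the list median. In Cth-/- the medians were 0.11 (endothelial), 0.04 (phagocyte), 0.33 (T), -0.14 (Rgs5/Notch3) and 0.24 (epithelial), and over Cth+/+ barcodes that passed the T gate alone the median was 0.10. In endothelial cells 4 of 19 were lower and none higher, beside 3.08% of all genes lower. In phagocytes 1 of 16 was lower (6.6% of all genes). In T cells 3 of 13 were lower and 1 higher, beside 15.9% and 15.4% of all genes. In the Rgs5/Notch3 gate 5 of 18 were lower and 1 higher, beside 7.97% and 5.34%. In epithelial cells 4 of 17 were lower, beside 8.45%. In the endothelial gate Gclc, the catalytic subunit of the first enzyme of glutathione synthesis, stood at 27.7 against 43.7 CPM and Cdo1, which oxidises cysteine, at 16.8 against 30.03 CPM. In the epithelial gate Gclc stood at 79.7 against 139 CPM, glutathione reductase Gsr at 47.7 against 79.1 CPM and the lysosomal cystine exporter Ctns at 12.1 against 23.4 CPM. Mat2a, which makes S-adenosylmethionine from methionine, stood at 286 against 423 CPM in phagocytes.

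Gpx3 was lower on the cystine-free diet in every gate and both genotypes described here. It stood at 78.9 against 186 CPM in the endothelial gate (143 against 240.5 CPM in Cth-/-), 70.9 against 165 CPM in phagocytes (125 against 289 CPM), 46.99 against 183 CPM in T cells (107 against 336 CPM) and 104 against 2169 CPM in the Rgs5/Notch3 gate, where it stood at 79.6 against 188 CPM without the keratin barcodes. In the progenitor gate of Cth+/+ it stood at 716 against 886 CPM. Summed epithelial markers were lower in the same gates, 181 and 85.5 CPM in the endothelial gate, 230 and 171 CPM in phagocytes and 80.8 and 53.1 CPM in T cells, control first. In Cth-/- their order was opposite in the endothelial gate (195 and 403 CPM) and in phagocytes (314 and 550 CPM) and the same in T cells (422 and 324 CPM), while Gpx3 was lower in all 3. The part of RNA from epithelial cells, where Gpx3 was highest of the 6 gates, in those values was not tested.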

How the data were processed

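Stromal vascular cells of subcutaneous fat were measured with droplet-based 3' RNA sequencing in 4 libraries, 1 for each of Cth+/+ and Cth-/- mice on the control and the cystine-free diet. The authors deposited a matrix of raw UMI counts for each library. It comes from Cell Ranger 3.0.0, per the file headers, with mm10 as the genome build, per the submitters' processing notes, and holds called cells. The gates, filters and ratios are defined where they first appear. Scrublet (scanpy 1.11.5) marked 100 and 99 of the kept Cth+/+ barcodes as doublets, and these were not removed. UMIs were summed per gate and library. Intervals of ratios are exact conditional intervals of the counts without the pseudocount, and those of shares are Clopper-Pearson intervals, at 95%. Shares after thinning leave out barcodes under 1000 UMIs. Computation used Python 3.11.15, numpy 2.4.6, scipy 1.17.1 and pandas 2.3.3, and the calculation of ratios was tested on simulated data. No test between the diets was run.

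Per gate, the rule for named genes takes the 10 highest and 10 lowest ratios of at least 2-fold among genes with 50 CPM and 30 UMIs in the higher library. They also needed 1.5-fold in the same direction over barcodes of that gate alone, no barcode with over 25% of the UMIs, and at least 1 part in 5 of the gene's highest CPM in any of the 6 gates. The rule passed over the gate genes, Xist, predicted gene models and genes of mitochondria, ribosomes, haemoglobins and immunoglobulins, and not every gene taken is printed. A few genes are not reported here. Members of the 45 gene lists and cell type markers could also be named. The members and lists were chosen with earlier results of these data known. Cycling barcodes were called from Mki67, Top2a, Ccnb1, Ccnb2, Cdk1, Ccna2, Birc5, Tpx2, Cenpf, Cenpe and Ube2c. Promoters came from RefSeq (GRCm38.p6) by gene symbol. Alternatives changed the pseudocount, the gene and barcode filters, the scaling, the gate minimums, the weight of each barcode, the depth and the barcodes entering a gate.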

Additional observations from a re-analysis of the deposited data

Results flagged for a closer look

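Each result given here stood at least 2-fold apart for a gene, or 1.5-fold for a list's median, between the diets in both genotypes and in opposite directions. With 1 library a group the difference between the genotypes was not tested.

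In the epithelial gate the median log2 ratio of the cell cycle list was 0.68 in Cth+/+ and -1.54 in Cth-/-, that of the matrix list was 0.77 and -2.01, and that of the MHC class II list was 0.61 and -1.13. The Cth+/+ median of the last was -0.16 with the gate minimum doubled, -0.037 with barcodes thinned and -0.26 over hormone-sensing barcodes. Summed progenitor markers in that gate stood at 1662 and 2304 CPM (control and cystine-free) in Cth+/+ and at 2660 and 653 CPM in Cth-/-, and their part in the matrix values was not tested.

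In the endothelial gate the log2 ratio of Mgp was 1.31 in Cth+/+ and -2.06 in Cth-/-, and that of Cfd was -2.00 and 1.02. Adipocyte markers there summed to 600 and 241 CPM in Cth+/+ and to 1588 and 2544 CPM in Cth-/-.

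In phagocytes Hist1h2ap stood at 1.68 in Cth+/+ and -2.06 in Cth-/-, and Fcna at -1.02 and 1.07. In the T gate Hist1h2ap stood at 2.33 and -1.15, Serpinb6b at 1.74 and -1.40, and Lef1 at -1.49 and 2.34. NK markers in the T gate, Gzma included, summed to 74.2 and 559 CPM in Cth+/+ and to 562 and 319 CPM in Cth-/-.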

How the results depend on the processing

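No paired analysis was possible because each group had 1 library. Gene counts, gate shares, gene ratios and list medians were recomputed with 1 choice, or a pair of linked limits, changed at a time. Of the counts of genes at least 2-fold apart, 104 recomputed values stayed within 1.5 times the reported count and 40 did not. Of list medians 120 moved beyond the median counting bounds of their members, which are as wide as those of single genes. A further 5 of at least 1.5-fold turned their sign and 1500 did neither. Of gene ratios 627 moved beyond their interval, 19 of that size turned and 2241 did neither. Smaller values that turned their sign are not counted as turned. The numbers below are genes higher and then lower on the cystine-free diet, and the cause of each shift was not tested unless the alternative's own construction gives it.

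With a gene minimum of 10 CPM and 10 UMIs, which admits more genes, they were 64 and 31 (endothelial), 40 and 67 (phagocyte), 383 and 465 (T), 107 and 287 (Rgs5/Notch3) and 403 and 197 (epithelial). Thinned to 1000 UMIs, where fewer UMIs are left, they were 19 higher (phagocyte), 38 and 15 (T), 33 and 31 (Rgs5/Notch3) and 17 higher (epithelial). With the gate minimums doubled they were 20 lower (phagocyte), 144 higher (T), 14 lower (Rgs5/Notch3) and 37 and 41 (epithelial). With the mean over barcodes they were 5 lower (phagocyte) and 12 and 13 (Rgs5/Notch3). Median-ratio scaling gave 8 lower in phagocytes, and leaving out cycling barcodes gave 3 lower in endothelial cells. Over barcodes passing only 1 gate the Rgs5/Notch3 gate gave 32 and 25.

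The following subsets were chosen after seeing the data. Barcodes in both the endothelial and the Rgs5/Notch3 gate, which are 1 set, gave 20 and 10. The whole endothelial gate had 12 and 6 and the whole Rgs5/Notch3 gate 20 and 74. The Rgs5/Notch3 gate without endothelial barcodes gave 201 and 176. Without lymphatic barcodes the endothelial gate gave 3 lower. C1q-high phagocytes gave 25 higher. Without keratin barcodes the Rgs5/Notch3 gate gave 8 lower. The epithelial gate gave 33 and 44 without basal barcodes, and 29 and 32 over hormone-sensing barcodes.

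Differences of gate shares in percentage points (cystine-free minus control) moved to -2.05 (only that gate) and 1.67 (minimum doubled) in the endothelial gate, to -0.517 (thinned) and -0.0174 (minimum doubled) in the T gate, and to 0.584 (thinned) and -0.117 (only that gate) in the Rgs5/Notch3 gate, the last with the sign turned. Other values of at least 1.5-fold whose sign turned were these. Without cycling barcodes Hist1h2ap stood at -0.20 in phagocytes and -0.33 in T cells, and H2afx at -0.27 in T cells. In C1q-low phagocytes Ifit1 stood at 1.01 and Timd4 at 0.15. Without NK barcodes Gzmb stood at -0.21 (0.34 where Gzma did not count in the division). Over barcodes passing only the Rgs5/Notch3 gate the cell cycle median was -0.14. In the epithelial gate the MHC class II median was -0.16 with the minimum doubled, -0.037 thinned and -0.26 over hormone-sensing barcodes, and Slpi stood at -0.43 with the minimum doubled. Without basal barcodes the basal median was -0.15, with Apoe at -0.59, Cxcl14 at -0.97, Krt17 at -0.40, Krt5 at -0.93, Slpi at -0.60 and Tagln at -0.27. Over hormone-sensing barcodes these genes stood at -1.07, -0.48, -0.27, -1.90, -1.05 and -2.06.

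The T and epithelial gates hold few barcodes, and their intervals cover counting error only.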

Other observations

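Heat shock chaperones, which refold damaged proteins, were near the control level in most gates of Cth+/+ mice. In Cth-/- mice they were higher in the endothelial, phagocyte and Rgs5/Notch3 gates, while in the epithelial gate the medians of the genotypes were close. In Cth+/+ 2 of 14 were at least 1.5-fold higher on the cystine-free diet in the endothelial gate (median 0.05), 0 of 14 in phagocytes (-0.01), 1 in T cells (0.17), 3 in the Rgs5/Notch3 gate (0.17) and 3 in epithelial cells (0.33), and none was lower in any of these. In Cth-/- the counts were 8, 8, 6, 10 and 5 of 14, with 1 lower in T cells and 1 in epithelial cells. The medians there were 0.67, 0.76, 0.30, 0.81 and 0.36, and 17.6% of all genes were higher in Cth-/- T cells. In the endothelial gate Hspa1a stood at 233 against 146 CPM (cystine-free against control) in Cth+/+ and 904 against 247 CPM in Cth-/-. The heat shock element, searched by name on both strands, was found in the promoters of Hsph1, Hspd1, Hspe1 and Chordc1, 4 of 11 matched genes (36.4%) against 0.662% of all genes. The promoters of Hspd1 and Hspe1 overlap on opposite strands and hold the same matched bases, so these genes are not independent.

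Nuclear genes of the respiratory chain were close between the diets in Cth+/+. None of 18 was 1.5-fold apart in the endothelial, phagocyte, Rgs5/Notch3 and epithelial gates, with medians of 0.21, 0.08, 0.05 and -0.20. In the T gate 3 were higher and none lower, with a median of 0.09. Glucocorticoid-induced genes had 4 of 14 higher and none lower in the epithelial gate (median 0.25) and 4 higher and 2 lower of 15 in the T gate (-0.06), where Tsc22d3, the glucocorticoid-induced leucine zipper, stood at 182 against 90.1 CPM. Immediate early genes, which tissue digestion can raise, had medians of -0.22 (endothelial), -0.16 (phagocyte), 0.12 (T), -0.06 (Rgs5/Notch3) and 0.11 (epithelial).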
